A study of Mus musculus with 18 samples.

Results

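The genes described here encode enzymes that act inside lysosomes, their activators, and proteins of the lysosomal membrane, together with the transcription factor *Tfeb*. They form a list of 30 genes taken by name: 10 cathepsins and the peptidase *Tpp1*, 8 glycosidases, 4 genes read together (*Lipa*, *Asah1* and *Psap* of lipid breakdown and its activation, and *Grn* of progranulin), 6 genes of membrane proteins (*Lamp1*, *Lamp2*, *Scarb2*, *Laptm4a*, *Laptm5* and *Mcoln1*) and *Tfeb*. All 30 were among the 20512 genes listed, and all 30 were among the 13268 genes tested, whose log2 values averaged 2 or more over the livers. The values are relative mRNA levels in bulk liver and give neither protein nor enzyme activity.

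The lysosome is the acidic compartment in which cells break down proteins, glycans, glycogen and lipids that arrive by endocytosis or autophagy. In hepatocytes it also takes in lipid droplets and glycogen, and in Kupffer cells, the macrophages of the liver, it digests engulfed material and supplies peptides for antigen presentation. Most lysosomal enzymes carry a sugar tag that sorts them from the Golgi to the lysosome, and many of their genes are controlled together by TFEB and the related factors TFE3 and MITF.

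Liver RNA of 18 male C57BL/6 mice, 6 in each of 3 groups and 1 library per mouse, was sequenced in the study. Mice entered it at 6 to 7 weeks of age and were fasted overnight before the livers were taken. For 4 months the first group ate chow, in which fat made up 13% of kcal, and the others a high-fat diet (HFD), in which it made up 60%. During the last 2 months all groups drank water with 0.2% DMSO, which in the third group (HFD+AC261066) also held 3 mg per 100 ml of AC261066, a synthetic agonist of the retinoic acid receptor RARβ2, so no group received AC261066 on chow. The deposited values are log2 values after removal of batch effects; levels given here are 2 raised to that value, and as they are not scaled to gene length they are compared between livers and not between genes. Depth per library is unknown from such values. For every gene the mean of the libraries numbered 1 to 3 equalled that of the libraries numbered 4 to 6, so these sets were read as the 2 batches levelled by the authors, and the fit held a term for them. Calls were made at an adjusted p under 0.1 (limma, Benjamini-Hochberg over all genes tested), which is also the threshold of the study.

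Promoters of some of these genes carry the sequence CACGTG, the core of the element to which TFEB and related factors bind. It is shown here because TFEB is known to control many lysosomal genes and *Tfeb* is itself a member. Which of the 30 genes it controls in these livers was not tested. RefSeq windows on GRCm38.p6, from 250 bases before to 50 bases after the start of the gene, were found for 27 of the 30 members. CACGTG, which reads the same on both strands, was present in 9 of these (33.3%), against 2187 of 27025 genes with a window (8.09%), 1133 of 9934 such genes among those tested here (11.4%) and 7.15% of all windows. The extended form TCACGTGA, which contains it and also reads the same on both strands, was present in the windows of *Ctsa*, *Ctsd*, *Gla* and *Mcoln1* (14.8%), against 1.12% of all genes with a window and 2.09% of those tested here. In other lists of lysosome and autophagy genes described below, CACGTG was in 23 of 88 genes with a window (26.1%). The 250 bases before the start are printed 5′ to 3′ for 3 members that fell on the HFD (*Gaa*, *Ctsl*, *Mcoln1*) and 2 that were not called (*Lamp1*, *Ctsd*), with CACGTG in capitals. These 5 were chosen after their values were seen.
Gaa: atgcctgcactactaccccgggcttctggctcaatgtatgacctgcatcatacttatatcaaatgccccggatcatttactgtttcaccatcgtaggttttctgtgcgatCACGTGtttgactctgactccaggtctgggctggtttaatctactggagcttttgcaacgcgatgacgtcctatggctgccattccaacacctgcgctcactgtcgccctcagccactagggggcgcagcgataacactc
Ctsl: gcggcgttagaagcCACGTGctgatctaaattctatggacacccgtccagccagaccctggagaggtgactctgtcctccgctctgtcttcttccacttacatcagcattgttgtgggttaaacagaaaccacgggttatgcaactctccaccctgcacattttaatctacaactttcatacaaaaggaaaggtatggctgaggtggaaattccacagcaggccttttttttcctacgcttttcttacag
Mcoln1: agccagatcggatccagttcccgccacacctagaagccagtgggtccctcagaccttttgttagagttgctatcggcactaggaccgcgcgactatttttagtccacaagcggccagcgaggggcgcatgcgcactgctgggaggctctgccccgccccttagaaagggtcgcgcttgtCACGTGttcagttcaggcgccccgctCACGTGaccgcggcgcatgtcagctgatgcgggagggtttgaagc
Lamp1: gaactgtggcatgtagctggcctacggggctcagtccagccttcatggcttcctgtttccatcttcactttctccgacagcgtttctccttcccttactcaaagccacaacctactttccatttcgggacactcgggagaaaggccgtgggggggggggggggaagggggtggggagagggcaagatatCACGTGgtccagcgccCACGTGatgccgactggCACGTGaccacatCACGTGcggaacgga
Ctsd: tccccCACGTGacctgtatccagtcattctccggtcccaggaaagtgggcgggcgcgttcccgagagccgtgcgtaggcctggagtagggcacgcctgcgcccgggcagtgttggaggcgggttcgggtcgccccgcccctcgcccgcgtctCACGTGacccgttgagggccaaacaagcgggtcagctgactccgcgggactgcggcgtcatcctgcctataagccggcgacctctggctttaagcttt
These stretches lie at chr11:119267713-119267962 (plus strand), chr13:64370521-64370770 (minus strand), chr8:3500269-3500518 (plus strand), chr8:13158911-13159160 (plus strand) and chr7:142387828-142388077 (minus strand), in the order given. *Lamp1* holds 4 matches, *Mcoln1* and *Ctsd* 2 each, and *Gaa* and *Ctsl* 1 each. The windows of *Ctsa* and *Gla* hold 2 each and those of *Glb1* and *Naglu* 1 each. Among the members that fell on the HFD, 5 of 10 with a window held CACGTG, and among the other members 4 of 17 did. A match describes the letters of a window and does not show that a factor was bound there.

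The first comparison, HFD against chow, asks what the diet did to these transcripts. Of the 30 genes, 11 fell and 3 rose, and 16 were not called. The genes that fell were those of the cathepsins *Ctsl*, *Ctsz*, *Ctsh* and *Ctsa*, the glycosidases *Gaa*, *Neu1*, *Gusb* and *Glb1*, the granulin precursor *Grn*, and the membrane proteins *Scarb2* and *Mcoln1*. Those that rose were *Ctso*, *Lipa* and *Laptm5*. The share called was 46.7%, against 29.2% of all genes tested. In the downward direction it was 36.7% against 15.0%, and in the upward direction 10.0% against 14.2%. The median log2 difference of the 30 genes was -0.10, that of all genes tested 0.01. For 4 genes (*Ctsl*, *Gusb*, *Gaa* and *Grn*) every HFD liver lay below every chow liver, a separation seen downward in 5.55% of all genes tested. No member had every HFD liver above every chow liver, against 4.18% of all genes. Changes were small: the 11 called differences ran from -0.71 to -0.18 and the 3 upward ones from 0.21 to 0.26 on the log2 scale. All 11 lay below 0 and all 3 above 0 both in the libraries 1 to 3 and in the libraries 4 to 6, and for none of the 30 genes did the difference between the sets pass the test. Within the libraries 1 to 3 alone, with 3 livers a group, only *Gaa* of the 11 was called, and in the libraries 4 to 6 alone all of them but *Ctsz*, and *Asah1* besides (-0.31, adjusted p = 0.0745), were called lower. With quantile normalization *Ctsa*, *Ctsz* and *Mcoln1* were no longer called, while *Ctsb* and *Ctss* were called higher. That left 8 members lower and 5 higher, against 1746 lower and 1608 higher of the 13268 genes tested. The median log2 difference was then -0.04 for the 30 genes and -0.01 for all genes tested.

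**Figure D1:**
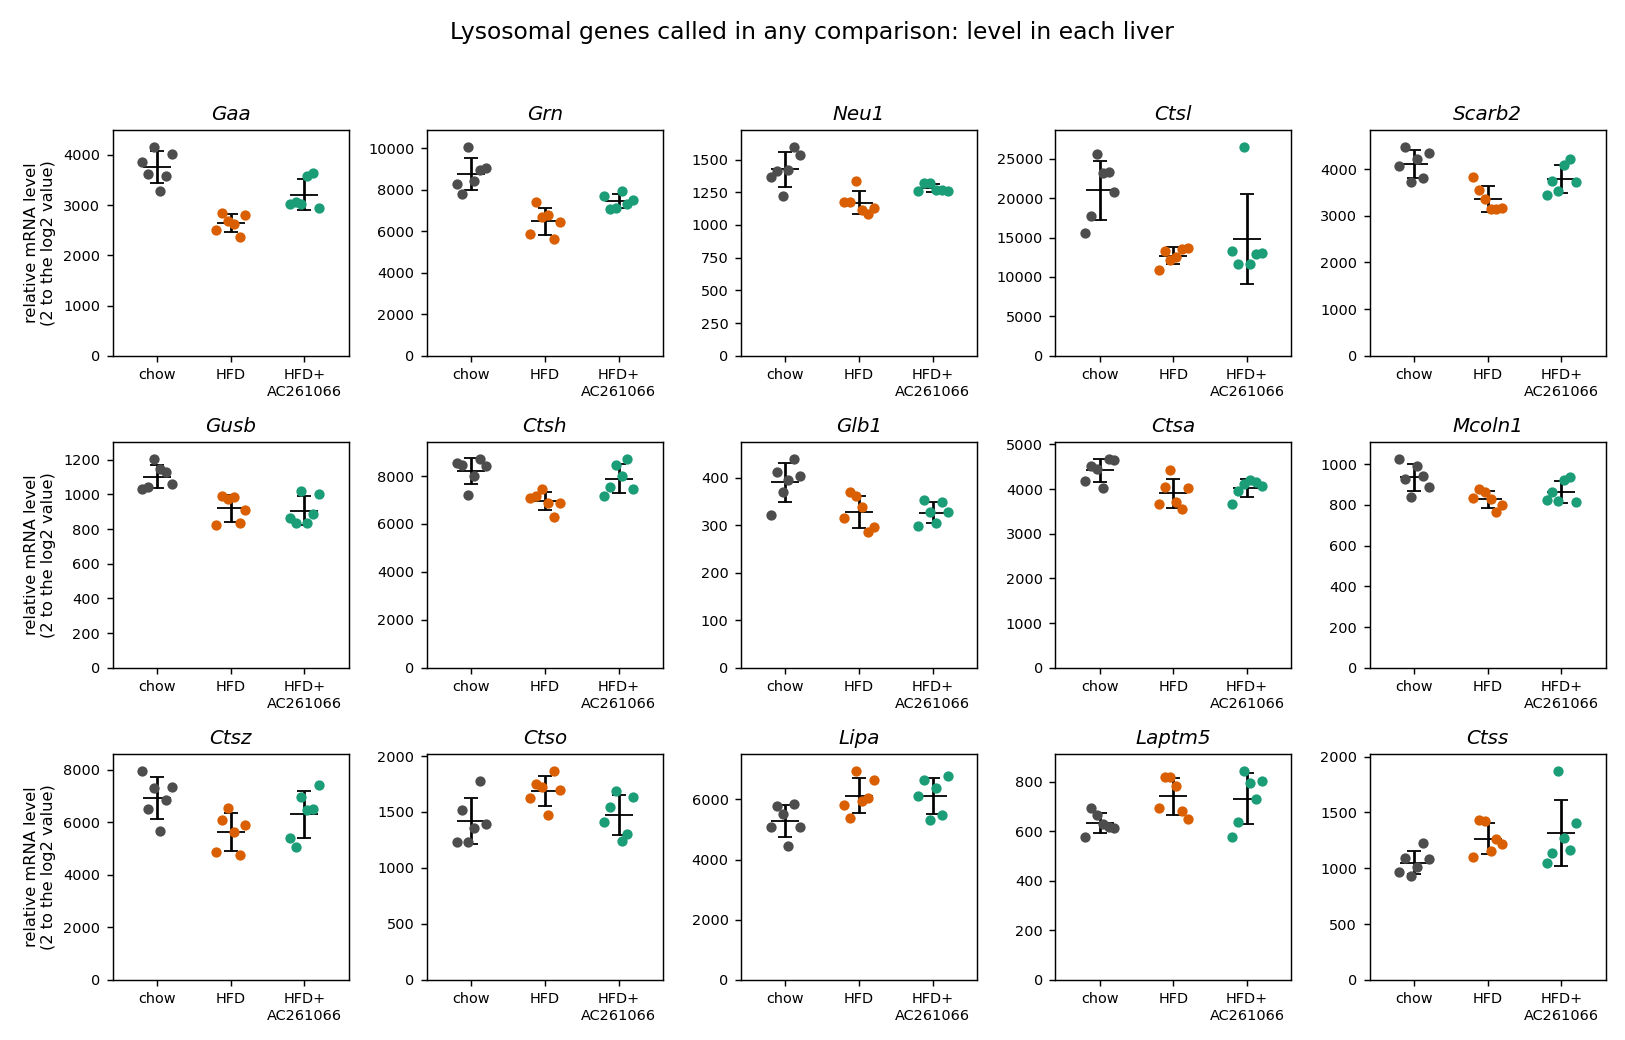
Relative mRNA level (2 to the log2 value, vertical axis from 0) of the 15 lysosomal genes called in any comparison. Each point is 1 liver in the chow, HFD or HFD+AC261066 group and the bars are mean ± SD of 6 livers; for *Gaa* the 6 HFD livers lie between 2373 and 2846, below all livers of both other groups, and for *Ctsl* a single HFD+AC261066 liver stands at 26484.

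Among the peptidases, *Ctsl* had the largest change of all 30 members. It encodes cathepsin L, a cysteine protease (Ensembl ENSMUSG00000021477.7, chr13:64464522-64471614 on the minus strand of mm9, the build of the files). The *Ctsl* level ran from 15638 to 25563 in chow livers (median 21963), from 10852 to 13680 in HFD livers (median 12948), and from 11608 to 26484 in HFD+AC261066 livers (median 12994). All 6 HFD livers were below all chow livers, while the HFD+AC261066 livers resembled the HFD livers except for replicate 3, which was above every chow liver. *Ctsl* fell by 39.0% on the HFD (log2 difference -0.71 ± 0.17 SE, adjusted p = 0.00653).

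*Ctsh* (cathepsin H, an aminopeptidase) lay between 7222 and 8694 in chow livers (median 8436) and between 6285 and 7446 in HFD livers (median 7000). In HFD+AC261066 livers it lay between 7160 and 8707 (median 7776). The chow and HFD ranges touched only through the lowest chow liver, and 5 of 6 HFD livers were below all chow livers. It fell by 15.3% on the HFD (log2 difference -0.24 ± 0.07 SE, adjusted p = 0.0146).

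*Ctsz* (cathepsin Z, a carboxypeptidase) ranged over 5658 to 7948 in chow livers (median 7071) and 4744 to 6552 in HFD livers (median 5755), with 5057 to 7414 in HFD+AC261066 livers (median 6484). These ranges overlapped broadly. Its log2 difference was -0.30 ± 0.11 (SE, adjusted p = 0.0484), and the call was lost without chow replicate 1 (adjusted p = 0.113), HFD replicate 1 (0.103) or HFD replicate 5 (0.115). *Ctsa* encodes cathepsin A, the protective protein that forms a complex with the sialidase and the β-galactosidase encoded by *Neu1* and *Glb1*. It ran from 4022 to 4672 in chow livers (median 4493), from 3563 to 4430 in HFD livers (median 3863) and from 3668 to 4214 in HFD+AC261066 livers (median 4090). HFD livers were lower in the middle and overlapped the chow livers in 2 of 6. The log2 difference was -0.18 ± 0.06 (SE, adjusted p = 0.0439, and 0.102 without HFD replicate 5). *Ctsa* overlaps *Pltp* and *Neurl2* on the opposite strand, and whether reads were counted by strand is not stated, so reads of these genes may not be separate.

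*Ctso*, a cysteine protease of the same family, changed the other way. Its level ran from 1233 to 1780 in chow livers (median 1375), from 1470 to 1865 in HFD livers (median 1710) and from 1245 to 1692 in HFD+AC261066 livers (median 1475). All 3 ranges overlapped. It rose by 19.7% on the HFD (log2 difference 0.26 ± 0.09 SE, adjusted p = 0.0568), and this call was lost without chow replicate 1, 3 or 4 or HFD replicate 5 (adjusted p from 0.101 to 0.132). *Ctss* encodes cathepsin S, the protease of antigen-presenting cells that trims the invariant chain. It lay between 933 and 1223 in chow livers (median 1045), between 1099 and 1431 in HFD livers (median 1242) and between 1046 and 1871 in HFD+AC261066 livers (median 1218). The *Ctss* difference of 0.27 ± 0.11 between HFD and chow narrowly missed the threshold (adjusted p = 0.106). It passed when only the 2 groups were fitted (0.0328) or without HFD+AC261066 replicate 3 (0.0296).

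The other peptidases were not called on the HFD. These were *Ctsb* and *Ctsd*, the cysteine and aspartic proteases cathepsin B and D, *Ctsc*, which activates serine proteases of granules, *Ctsk*, known from osteoclasts, and *Tpp1*, a tripeptidyl peptidase. Their log2 differences ran from -0.16 (*Ctsc*, 95% interval -0.38 to 0.07) to 0.11 (*Ctsb*, -0.04 to 0.27). The *Ctsk* level was 17.9 to 22.8 in chow livers and 15.3 to 25.6 in HFD livers. *Ctsb* shares 769 bases with *Fdft1* on the opposite strand. *Ctsc*, *Ctsd*, *Ctss* and *Ctsz* overlap genes whose names are not among those listed, for *Ctsd* over 2606 bases on the same strand.

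The glycosidases split into members that fell and members that were not called. *Gaa* encodes the acid α-glucosidase that degrades glycogen in lysosomes (ENSMUSG00000025579.8, chr11:119129201-119146768 on the plus strand of mm9) and had the smallest p of all 30 genes in this comparison. Its level ran from 3278 to 4152 in chow livers (median 3741), from 2373 to 2846 in HFD livers (median 2651) and from 2937 to 3630 in HFD+AC261066 livers (median 3044). The HFD livers were apart from both other groups, which overlapped each other. *Gaa* fell by 29.6% on the HFD (log2 difference -0.51 ± 0.07 SE, adjusted p = 0.000167), and it was called without any single liver, with adjusted p from 0.000144 to 0.000761. *Gusb*, the β-glucuronidase, ran from 1034 to 1204 in chow livers (median 1096), from 823 to 993 in HFD livers (median 942) and from 833 to 1020 in HFD+AC261066 livers (median 876). Chow livers were above all others in both groups. It fell by 16.8% (log2 difference -0.27 ± 0.07 SE, adjusted p = 0.0126).

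*Neu1*, the sialidase, lay between 1218 and 1595 in chow livers (median 1418) and between 1084 and 1339 in HFD livers (median 1154). In HFD+AC261066 livers it was confined to 1262 to 1322 (median 1269), the narrowest spread of the 3 groups for this gene. A single HFD liver overlapped the chow range. Its log2 difference was -0.28 ± 0.06 (SE, adjusted p = 0.0053), with -0.11 in the libraries 1 to 3 and -0.45 in the libraries 4 to 6. *Glb1*, the β-galactosidase, ran from 321 to 439 in chow livers (median 400), from 287 to 370 in HFD livers (median 327) and from 299 to 352 in HFD+AC261066 livers (median 328). The groups overlapped through the lowest chow livers. The *Glb1* difference was -0.25 ± 0.08 (SE, adjusted p = 0.0391), and it was -0.07 in the libraries 1 to 3 and -0.43 in the libraries 4 to 6. *Ctsa*, *Neu1* and *Glb1*, whose products form 1 enzyme complex, each fell on the HFD, a grouping made after their values were seen.

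*Gla*, *Hexa*, *Naglu* and *Man2b1* were not called. They encode the α-galactosidase A, the α subunit of β-hexosaminidase, the enzyme that removes N-acetylglucosamine from heparan sulfate, and the lysosomal α-mannosidase. *Gla*, at 112 to 147 in chow livers (median 134) and 137 to 157 in HFD livers (median 146), came closest (log2 difference 0.16 ± 0.07 SE, adjusted p = 0.103) and was called without the set term (0.0813) and with each library shifted to the same median (0.0825). The differences of the other 3 ran from -0.02 (*Naglu*) to 0.16 (*Hexa*).

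Among *Grn* and the genes of lipid breakdown and its activation, *Grn* fell and *Lipa* rose. *Grn* encodes progranulin, which is cut into granulins in the lysosome (ENSMUSG00000034708.4, chr11:102291629-102298123 on the plus strand of mm9). Its level ran from 7811 to 10047 in chow livers (median 8698), from 5637 to 7402 in HFD livers (median 6555) and from 7082 to 7940 in HFD+AC261066 livers (median 7410). All HFD livers were below all chow livers, and the HFD+AC261066 livers lay between, overlapping both. *Grn* fell by 26.2% on the HFD (log2 difference -0.44 ± 0.07 SE, adjusted p = 0.000567).

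*Lipa* encodes lysosomal acid lipase, which hydrolyses cholesteryl esters and triglycerides. It lay between 4443 and 5865 in chow livers (median 5299), between 5370 and 6943 in HFD livers (median 6009) and between 5308 and 6784 in HFD+AC261066 livers (median 6254). In 4 of 6 HFD livers it was above every chow liver. It rose by 15.9% on the HFD (log2 difference 0.21 ± 0.08 SE, adjusted p = 0.0753), and the call was lost without chow replicate 1, 4 or 6 or HFD replicate 3, 5 or 6 (adjusted p from 0.107 to 0.18). *Asah1* (acid ceramidase) and *Psap* (the precursor of the saposins, which activate sphingolipid hydrolases) were not called, with log2 differences of -0.09 ± 0.11 and 0.01 ± 0.07 (SE).

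Of the membrane proteins, *Scarb2* and *Mcoln1* fell and *Laptm5* rose. *Scarb2* encodes LIMP-2, the receptor that carries β-glucocerebrosidase to lysosomes. It ran from 3724 to 4473 in chow livers (median 4150), from 3138 to 3826 in HFD livers (median 3269) and from 3437 to 4218 in HFD+AC261066 livers (median 3733). All but 1 HFD liver were below the chow range. Its log2 difference was -0.29 ± 0.07 (SE, adjusted p = 0.00745). *Mcoln1* encodes the calcium channel TRPML1. It ran from 840 to 1024 in chow livers (median 934), from 765 to 879 in HFD livers (median 830) and from 811 to 938 in HFD+AC261066 livers (median 843). The HFD range reached into the chow range in 2 of 6 livers. The log2 difference of *Mcoln1* was -0.18 ± 0.06 (SE, adjusted p = 0.0442, and 0.109 without chow replicate 1).

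*Laptm5*, a lysosomal membrane protein of blood cells, lay between 577 and 692 in chow livers (median 623), between 648 and 818 in HFD livers (median 737) and between 578 and 842 in HFD+AC261066 livers (median 761). The ranges overlapped, with 3 of 6 HFD livers above all chow livers. Its log2 difference was 0.22 ± 0.09 (SE, adjusted p = 0.0839), a call that was lost without chow replicate 1, 4, 5 or 6 or HFD replicate 2, 3 or 4 (adjusted p from 0.122 to 0.176). The structural proteins *Lamp1* and *Lamp2* and the transport protein gene *Laptm4a* were not called. *Lamp1* differed by 0.00 (95% interval -0.13 to 0.13) and *Laptm4a* by -0.06 (-0.16 to 0.04). *Lamp1* shares 177 bases with *Grtp1* on the opposite strand. *Lamp2*, at 15842 to 17502 in chow livers (median 16544) and 13734 to 16376 in HFD livers (median 15331), differed by -0.12 ± 0.06 (SE, adjusted p = 0.14).

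*Tfeb* itself was not called in any comparison. Its level ran from 218 to 273 in chow livers (median 248), from 218 to 239 in HFD livers (median 232) and from 223 to 266 in HFD+AC261066 livers (median 235). The log2 difference between HFD and chow was -0.10 (95% interval -0.24 to 0.03, adjusted p = 0.274). TFEB is regulated largely through its location in the cell, which mRNA levels do not show.

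**Figure D2:**
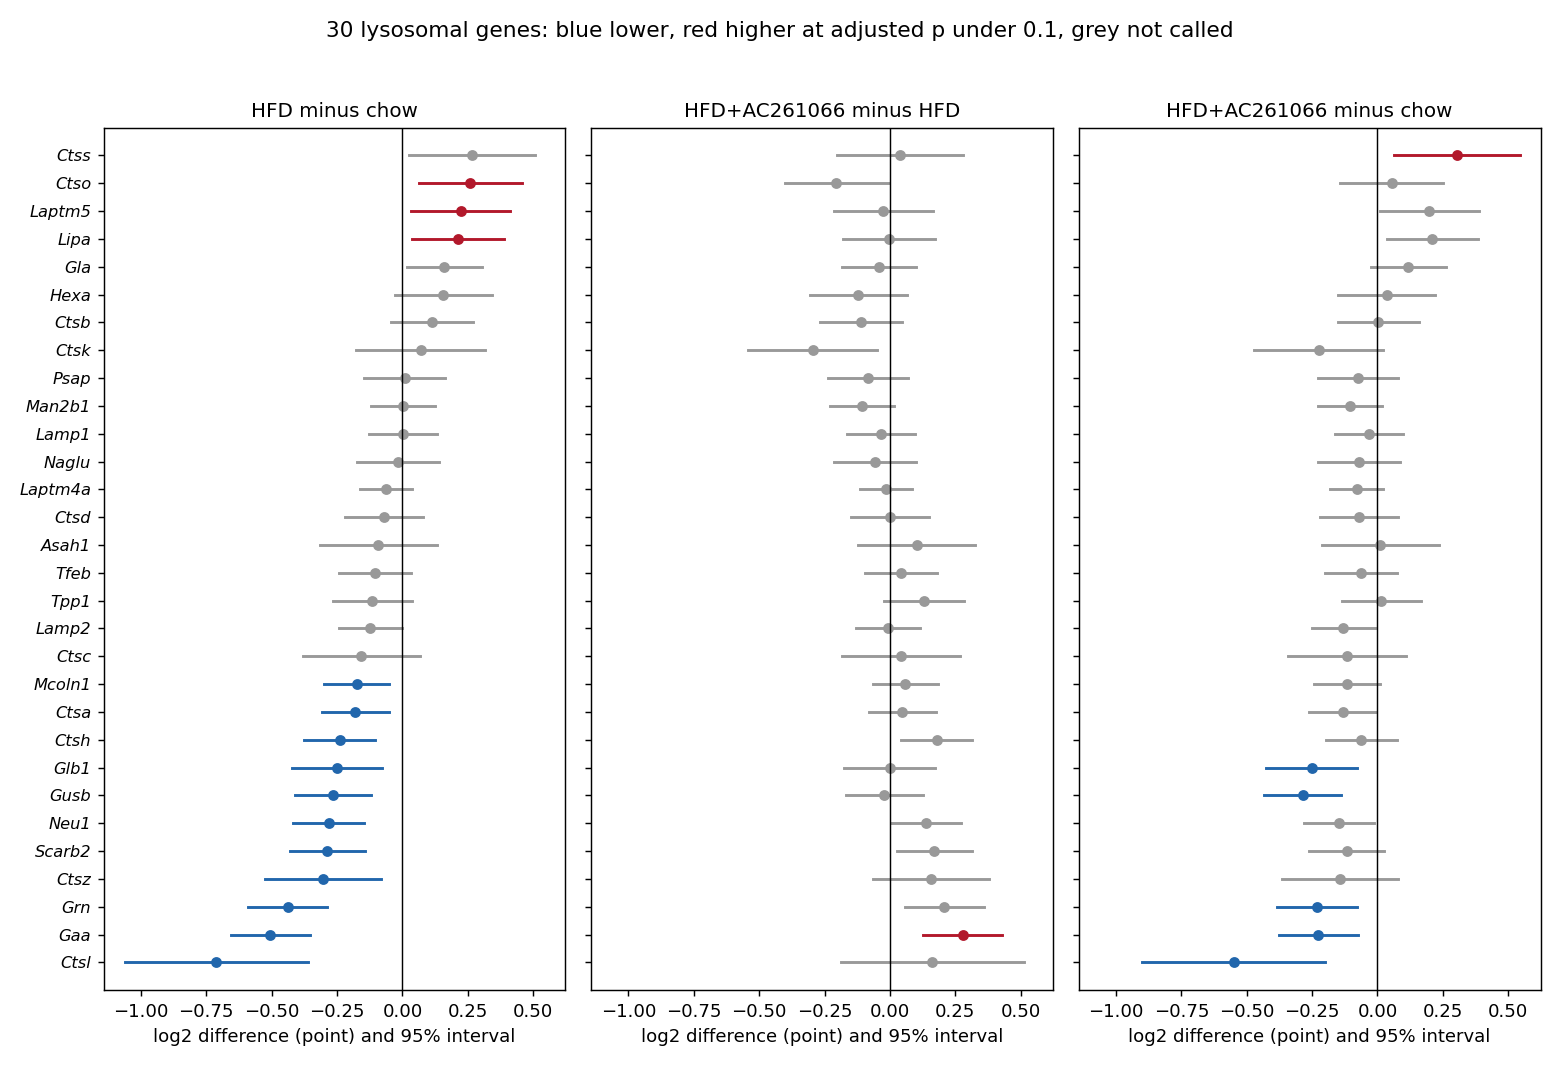
Log2 difference (points) with 95% interval (lines) of the 30 lysosomal genes in the 3 comparisons, ordered by HFD minus chow, with genes called lower in blue, called higher in red and the rest in grey. HFD minus chow runs from -0.71 for *Ctsl* to 0.27 for *Ctss*; *Gaa* is the gene called in HFD+AC261066 minus HFD.

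The next comparison, HFD+AC261066 against HFD, asks what the drug changed on the same diet. *Gaa* rose, and none of the other 29 genes was called. The share called was 3.33%, against 2.80% of all genes tested (1.27% higher and 1.54% lower), so it was close to the background. The median log2 difference was 0.00, as for all genes tested. At an unadjusted p under 0.05 there were 7 of the 30 genes, against 15.7% of all genes tested. The *Gaa* level was higher in each of the 6 HFD+AC261066 livers than in any HFD liver, a separation seen upward in 0.791% of all genes tested. No member was separated downward, against 0.950% of all genes. *Gaa* was 1.21-fold higher (log2 difference 0.28 ± 0.07 SE, adjusted p = 0.0616). The call was lost when HFD replicate 3, 4 or 5 or HFD+AC261066 replicate 4 or 5 was left out (adjusted p from 0.111 to 0.153), and the difference was 0.18 in the libraries 1 to 3 and 0.38 in the libraries 4 to 6.

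For the other 10 genes that fell on the HFD, the differences between HFD+AC261066 and HFD were as follows. *Grn* differed by 0.21 (95% interval 0.06 to 0.36, adjusted p = 0.163), *Ctsh* by 0.18 (0.04 to 0.31, adjusted p = 0.183) and *Scarb2* by 0.17 (0.03 to 0.31, adjusted p = 0.239). *Neu1* differed by 0.14 (0.0027 to 0.27, adjusted p = 0.307). These intervals lie above 0 for the single gene, but none passed the adjustment over all genes. *Ctsz* differed by 0.16 (-0.06 to 0.38), *Mcoln1* by 0.06 (-0.07 to 0.18) and *Ctsa* by 0.05 (-0.08 to 0.18). *Glb1* differed by 0.00 (-0.17 to 0.17) and *Gusb* by -0.02 (-0.17 to 0.13). *Ctsl* differed by 0.16 (-0.19 to 0.51), and by -0.03 without HFD+AC261066 replicate 3. Both comparisons use the same HFD livers, so their values are given side by side and not as independent results. In the libraries 4 to 6 alone, *Scarb2* (0.35, adjusted p = 0.0598) and *Tpp1* (0.32, adjusted p = 0.0947) were called besides *Gaa*, while no member was called in the libraries 1 to 3.

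Of the genes that rose on the HFD, *Ctso* was at -0.21 ± 0.09 in HFD+AC261066 minus HFD (adjusted p = 0.298), *Lipa* at 0.00 (95% interval -0.18 to 0.17) and *Laptm5* at -0.02 (-0.21 to 0.16). *Ctsk* had the lowest value of all 30 genes, -0.30 ± 0.12 (SE, adjusted p = 0.232), with levels of 15.1 to 19.1 in HFD+AC261066 livers against 15.3 to 25.6 in HFD livers. Without HFD replicate 1, *Ctsk* was called lower (-0.38, adjusted p = 0.0856). The remaining members lay between -0.12 (*Hexa*) and 0.13 (*Tpp1*).

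The last comparison sets the HFD+AC261066 livers against the chow livers, with which the first comparison shares its control group. Called lower were *Ctsl* (log2 difference -0.55 ± 0.17 SE, adjusted p = 0.045), *Gusb* (-0.29 ± 0.07, 0.0181), *Glb1* (-0.25 ± 0.08, 0.0608), *Grn* (-0.23 ± 0.07, 0.0506) and *Gaa* (-0.23 ± 0.07, 0.0539). *Ctss* was called higher (0.30 ± 0.11, adjusted p = 0.0986). Of the 30 genes, 6 were called, against 16.7% of all genes tested. The share called lower was 16.7%, against 8.45% of all genes tested, and the share called higher 3.33% against 8.22%. *Gusb* was the only member for which the 2 groups did not overlap, against 2.02% of all genes tested in this direction and 1.67% in the other, in which no member was separated. The median log2 difference of the members was -0.08 and that of all genes tested 0.00.

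For the other members that fell on the HFD, the difference from chow in HFD+AC261066 livers was -0.15 (95% interval -0.28 to -0.01) for *Neu1*, -0.14 (-0.37 to 0.08) for *Ctsz*, -0.13 (-0.26 to 0.00) for *Ctsa*, -0.12 (-0.26 to 0.03) for *Scarb2*, -0.12 (-0.24 to 0.01) for *Mcoln1* and -0.06 (-0.20 to 0.07) for *Ctsh*. None of these 6 passed the adjusted threshold, and their intervals include or nearly reach 0. *Lipa* was at 0.21 ± 0.08 (SE, adjusted p = 0.114). Single livers decided several calls here. *Ctsl* was at -0.74 without HFD+AC261066 replicate 3 (adjusted p = 0.000386) and lost its call without HFD+AC261066 replicate 4 (0.105). *Gaa* lost it without chow replicate 6 (0.12) or HFD+AC261066 replicate 1 (0.109), and *Grn* without chow replicate 6 (0.102). *Glb1* lost it without chow replicate 2, 4, 5 or 6 or HFD+AC261066 replicate 1 or 4 (0.107 to 0.126). The call of *Ctss* held in 3 of the 18 fits with a liver left out; without HFD+AC261066 replicate 3, its highest liver, the difference was 0.19 (adjusted p = 0.16).

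**Figure D3:**
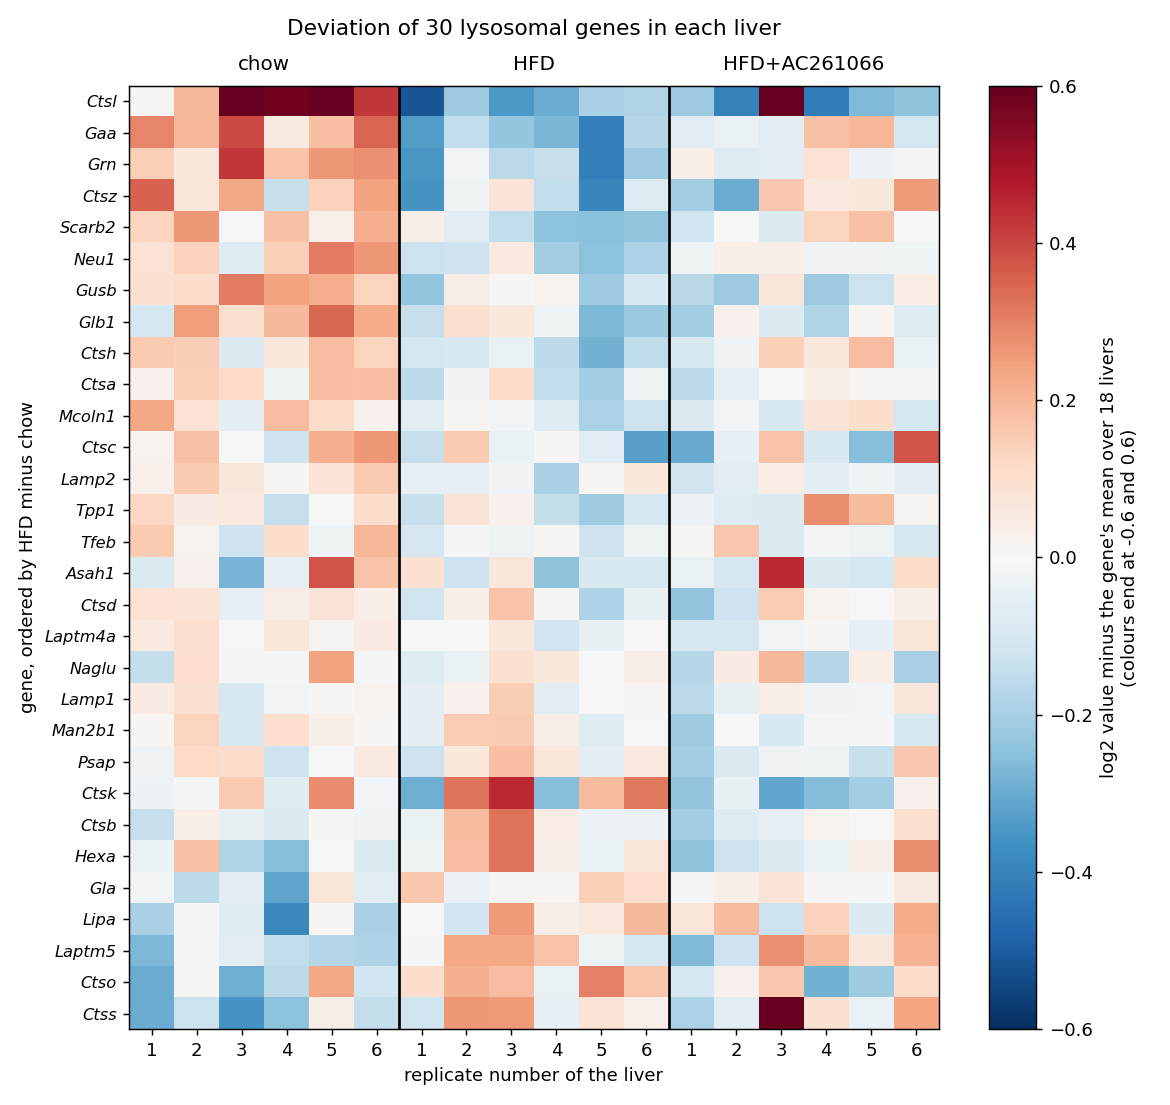
Log2 value of each of the 30 lysosomal genes in each of the 18 livers, minus the gene's mean over all livers (blue below, red above, colours ending at -0.6 and 0.6), with genes in order of HFD minus chow. The upper rows, led by *Ctsl*, are mostly red in chow and blue in HFD livers, while chow replicate 5 is above the mean in 28 of 30 genes and HFD+AC261066 replicate 1 below it in 27.

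The members also varied between livers of the same group. Counted over all 30 genes, chow replicate 5 was above the mean of all livers in 28 genes and chow replicate 2 in 25, but chow replicate 3 in only 11. Among HFD livers, replicate 1 was above the mean in 4 genes and replicate 3 in 21. Among HFD+AC261066 livers, replicate 1 was above it in 3 and replicate 6 in 18. The mean deviation over the members ran from 0.00 to 0.14 in chow livers, from -0.11 to 0.07 in HFD livers and from -0.14 to 0.07 in HFD+AC261066 livers on the log2 scale, so that the 3 groups overlapped when all members were averaged. HFD+AC261066 replicate 3 was high for *Ctsl*, *Ctss* and *Asah1* at once.

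Bulk liver mixes hepatocytes with macrophages and other cells, and fewer cells of a type cannot be told apart from less RNA per cell. Lists of cell type markers were therefore read beside the members. Hepatocyte markers, which check the label of the tissue, were present in every liver at a summed level of 3153640 to 3975270 in chow livers, 2987900 to 3395740 in HFD livers and 2870920 to 3717340 in HFD+AC261066 livers. On the HFD, 15.0% of all genes tested fell and 14.2% rose. Of the 10 hepatocyte markers 6 fell, among them *Hnf4a* (-0.55) and *Tat* (-1.14), and none rose. Of 6 pan-leukocyte markers, 5 rose, among them *Ptprc* (0.40), with a summed level of 1001 to 1207 in chow livers against 1292 to 1591 in HFD and 1182 to 1775 in HFD+AC261066 livers. Of 17 Kupffer cell and macrophage markers tested, 4 rose and none fell, among them *Clec4f* (0.36) and *Emr1* (0.35), with a summed level of 16371 to 20079 in chow, 18600 to 23955 in HFD and 18179 to 29487 in HFD+AC261066 livers. Every marker name but *Adgre1*, the newer name of *Emr1*, was among the genes listed. None of the markers listed, tested or not, was at 0 in every library. *Ctss* and *Laptm5* are themselves known from leukocytes, and the part of cell composition in the members' differences was not tested.

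Lipid-associated macrophage markers, a set that includes lysosome-related genes such as *Gpnmb*, numbered 8, of which 4 rose and 1 fell on the HFD. Their summed level was 1283 to 1944 in chow, 1394 to 1923 in HFD and 1214 to 1590 in HFD+AC261066 livers. *Spp1*, which is also in the cholangiocyte list, weighed heavily in these sums. Its median was 683 in chow livers, against a summed median of 1358. *Itgax* rose by 0.59 and *Mmp12* by 1.26 on the log2 scale, from median levels of 24.9 and 20.8 in chow livers. The lowest difference in the list was -0.35. Of 9 monocyte and neutrophil markers tested 4 rose, with summed levels of 1444 to 1932, 1904 to 2488 and 1644 to 2851 in the same order of groups, and of 9 dendritic cell markers 4 rose, with 2595 to 4572, 3125 to 6446 and 2762 to 5544. Between HFD+AC261066 and HFD livers no marker of these 6 lists was called. Between HFD+AC261066 and chow livers *Ctss* was higher and 5 members were lower. In that comparison 7 of 17 Kupffer cell and macrophage markers, 4 of 6 pan-leukocyte markers and 3 of 9 monocyte and neutrophil markers were higher. So were 4 of 12 T, NK and B cell markers and 3 of 9 sinusoidal endothelial markers, against 8.22% of all genes tested. Lower were 4 of 10 hepatocyte markers, against 8.45% of all genes tested. No lipid-associated macrophage, dendritic cell, stellate cell and fibroblast or cholangiocyte marker was called there.

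**Figure D4:**
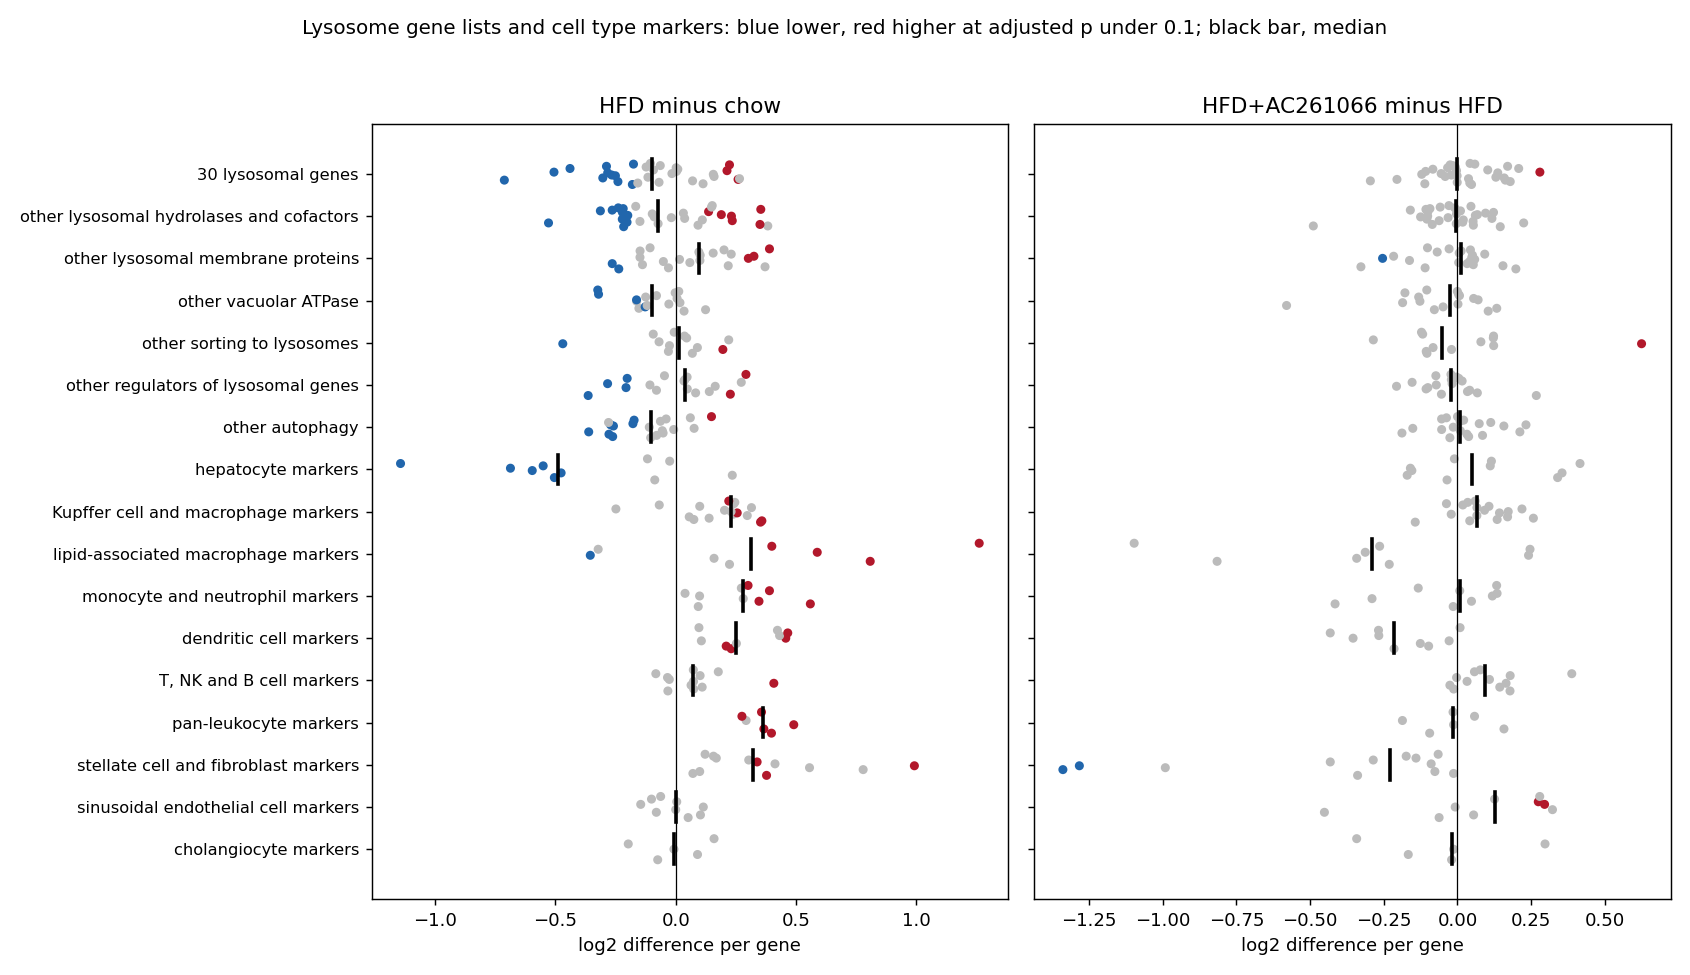
Log2 difference of each gene (points) in the 30 lysosomal genes, 6 other lists of lysosome and autophagy genes and 10 lists of cell type markers, for HFD minus chow and HFD+AC261066 minus HFD, with genes called lower in blue, called higher in red and list medians as black bars. In HFD minus chow the median of the 30 genes is -0.10, that of the hepatocyte markers -0.49 and that of the pan-leukocyte markers 0.36.

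Other genes of the lysosome and of autophagy were read from 6 further lists, with 114 of 116 genes tested. On the HFD, 28 of the 114 fell (24.6%, against 15.0% of all genes) and 13 rose (11.4%, against 14.2%), and their median log2 difference was -0.03. Among 29 other hydrolases and cofactors, 10 fell and 6 rose. *Galns*, the sulfatase of keratan sulfate, was at -0.53 (adjusted p = 0.00415) and *Ctsf*, cathepsin F, at -0.24, while *Arsb*, the sulfatase of dermatan sulfate, rose (0.35). Of 16 subunits and partners of the vacuolar ATPase, the proton pump that acidifies lysosomes, 4 fell and none rose, led by *Atp6v1g1* (-0.32) and *Atp6ap2* (-0.32). Of 19 autophagy genes 7 fell and 1 rose. *Sqstm1*, the autophagy receptor p62, was at -0.36 and *Map1lc3b*, the LC3B of autophagosome membranes, at -0.26.

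Among 17 regulators of lysosomal genes 4 fell and 2 rose on the HFD. *Tfe3*, the relative of *Tfeb*, fell (-0.36 ± 0.08 SE, adjusted p = 0.00639), as did *Rragc* (-0.21), *Fnip1* (-0.28) and *Lamtor3* (-0.20), whose products act in nutrient sensing by mTORC1 at the lysosome. The other lysosomal membrane proteins had no common direction, with 3 of 21 higher and 2 lower. *Clcn7*, the chloride-proton exchanger, rose on the HFD (0.30, adjusted p = 0.00129) and fell between HFD and HFD+AC261066 livers (-0.25, adjusted p = 0.0345). Of 12 sorting genes 1 fell and 1 rose. *Sort1*, the sorting receptor sortilin, fell on the HFD (-0.47, adjusted p = 0.00842) and rose between HFD and HFD+AC261066 livers (0.62, adjusted p = 0.0137). *Clcn7* and *Sort1* were the genes called between HFD+AC261066 and HFD livers among the 114, or 1.75%, against 2.80% of all genes tested. Against chow, 24 of the 114 (21.1%, against 8.45% of all genes) were lower and 7 (6.14%, against 8.22%) higher in HFD+AC261066 livers, 7 of the lower ones being among the 16 genes of the vacuolar ATPase.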

How the data were processed

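RNA of 18 mouse livers was sequenced, 6 in each of the chow, HFD and HFD+AC261066 groups, which were taken from the sample labels. The authors deposited log2 values per gene and library. According to their methods and the submitters' processing notes, the authors aligned reads to the mouse genome mm9 with TopHat2 2.0.11, counted reads per gene with HTSeq 0.6.1, analysed the counts in DESeq2 1.6.3 and took out batch effects with limma 3.22.7 before depositing the log2 values; the notes also name bcl2fastq 2.17 and cutadapt. The transform behind the log2 values and the strand setting of the counting are not given in the sources used here. Removing batch effects sets batch means equal and can remove part of a difference that goes with the batch. The labels also carry a growth text for neural stem cells and a DNA library kit, which go against the liver RNA of the other labels and of the methods, and were not used.

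Of 20512 genes listed, 3620 were at exactly 0 in every library and 16892 had a value. Genes averaging a log2 value of 2 or more, 13268 in all, were fitted in R 4.3.3 by limma 3.58.1 with a variance trend, all 18 libraries and a term for the libraries 1 to 3 or 4 to 6 (14 residual and 4.88 prior degrees of freedom). The term was included because the levelling used a degree of freedom, and the largest difference between the means of these sets was 4.4e-14. Adjusted p-values (Benjamini-Hochberg) are over all genes tested, and intervals are 95% intervals of the fit. No counts were used, so counting error is not known, and errors reflect the spread between mice. Each library is 1 mouse.

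All 30 members are accounted for. Members called in any comparison are given with the lowest, median and highest level of each group. From each other list the genes with the smallest p in HFD against chow are named, up to 4, with any called in HFD+AC261066 against HFD, and from each marker list up to 2 genes; 1 gene that this rule names is not reported here. Members and lists were chosen with earlier results of these data known. Alternatives were no set term, each set alone, a block for the replicate number, quantile normalization, equal medians, no trend, a fit of 2 groups only, every gene with a value or a mean log2 value of 5 or more, leaving out each library, and an adjusted p under 0.05. The fit was tested on simulated data. Promoter windows come from RefSeq on GRCm38.p6 and gene coordinates from an annotation of mm9. Other steps used Python 3.11.15, pandas 2.3.3, scipy 1.17.1 and matplotlib 3.10.9.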

Additional observations from a re-analysis of the deposited data

Results flagged for a closer look

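Each of the 30 genes was examined in each of the 3 groups, 90 groups of 6 livers in all, for a highest or lowest liver that stood apart by more than 0.625 of the group's range. Chance alone gives this in about 1 of 20 groups, and it was found in 2. The log2 value of *Ctsl* in HFD+AC261066 replicate 3 was 14.69 (level 26484), while the other 5 livers lay between 11608 and 13309, a gap of 0.834 of the range. That liver was also the highest of its group for *Ctss*. The log2 value of *Ctsd*, the gene of cathepsin D, in chow replicate 3 was 13.35 (level 10462), below the other 5 chow livers at 11109 to 11484, a gap of 0.644 of the range, and *Ctsd* was called in no comparison.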

How the results depend on the processing

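Against chow, the number of members lower on the HFD was 11 as reported, 1 in the libraries 1 to 3 alone and 9 to 11 with a liver left out, and the number higher was 3 as reported, 5 without the set term, 1 and 0 in the libraries 1 to 3 and 4 to 6, 5 with quantile normalization, 0 at a threshold of 0.05 and 0 to 4 with a liver left out (0 without chow replicate 1 or 4, and 1 without chow replicate 6 or HFD replicate 3 or 5). All genes called numbered 3880, 922 in the libraries 1 to 3 and 3083 to 4159 with a liver left out. Between HFD+AC261066 and HFD, members higher were 1 as reported, 0 and 3 in the libraries 1 to 3 and 4 to 6, 0 at 0.05 and 0 to 1 with a liver left out, and members lower 0 as reported and 0 to 1 with a liver left out. All genes called there numbered 372, with 581 without the set term, 23 and 620 in the sets, 172 at 0.05 and 125 to 683 with a liver left out; 45.2% of the calls were upward, and 37.0% with each library shifted to the same median. Between HFD+AC261066 and chow, members lower were 5, with 0 in the libraries 1 to 3, 3 with quantile normalization, 2 at 0.05 and 2 to 6 with a liver left out (2 without chow replicate 6, 3 without HFD+AC261066 replicate 1 or 4). Members higher there were 1, with 2 without the set term and with quantile normalization, 0 in the libraries 1 to 3, without a filter, with equal medians, without the trend, with only the 2 groups and at 0.05, and 0 to 2 with a liver left out. All genes called there numbered 2212, with 123 in the libraries 1 to 3, 1239 at 0.05 and 1387 to 2811 with a liver left out. Sets alone hold 3 livers a group; for the other changes the cause was not tested. No call reversed its direction. Of 2607 values of single members under alternatives, 99 lost a call and 30 gained one.

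Replicate numbers did not pair the samples: deviations of same-numbered livers correlated at -0.361 to 0.148, and 0 of 18 livers matched their own number best. With the replicate block, *Gaa* was no longer called between HFD+AC261066 and HFD (adjusted p = 0.122, so 0 members higher), *Lipa* was not called on the HFD (0.109) and *Ctss* was (0.0932).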

Other observations

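Markers of the remaining cell types were also read beside the lysosomal genes. Of all genes tested, 14.2% rose and 15.0% fell on the HFD. Between HFD and HFD+AC261066 livers 1.27% rose and 1.54% fell. Of 12 stellate cell and fibroblast markers 3 rose on the HFD, among them *Col3a1*, a fibrillar collagen (0.99), and 2 fell between HFD and HFD+AC261066 livers, *Col3a1* (-1.28) and *Col1a1* (-1.34). Their summed level was 5272 to 9499 in chow, 6541 to 12344 in HFD and 5629 to 7744 in HFD+AC261066 livers. Of 9 sinusoidal endothelial markers none was called on the HFD, and 2 rose between HFD and HFD+AC261066 livers, *Kdr*, the VEGF receptor (0.30), and *Fcgr2b*, an Fc receptor (0.27), with summed levels of 10380 to 11025, 9930 to 11477 and 10728 to 12664 in the same order of groups. Of 12 T, NK and B cell markers tested, *Cd4* rose on the HFD (0.41), and the summed level was 158 to 180.4 in chow, 172 to 191 in HFD and 178 to 216 in HFD+AC261066 livers. None of 5 cholangiocyte markers tested was called in these comparisons, with summed levels of 656 to 1206, 797 to 1111 and 732 to 880. *Spp1* weighed heavily in these sums too, with a median of 683 in chow livers against a summed median of 825.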
